A study of Mus musculus with 15 samples.

Results

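The genes described here are 42 interferon-stimulated antiviral genes of the mouse, chosen by name from a fixed list that holds Ifnb1, the gene of interferon beta, and 41 genes that interferons are known to induce. They were followed in RNA-seq of bone marrow-derived macrophages (BMDMs), cells grown from marrow in macrophage colony-stimulating factor (M-CSF) that can become osteoclasts. Of the 42 genes, 40 have a complete entry among the 20089 analysed, and all 40 passed the filter on low values. Mx1 and Mx2, GTPases that block virus replication, were not analysed here. The study compared cells given receptor activator of NF-κB ligand (RANKL), the cytokine that drives osteoclast formation, with cells given lipopolysaccharide (LPS), a component of bacterial walls, at 4 h and 72 h. Each of the 5 groups, of 3 samples each and 15 in all, came from wild-type C57BL/6 mice and had M-CSF, and the stimulated ones are named by agent and time (LPS 4 h, LPS 72 h, RANKL 4 h and RANKL 72 h). Control cells had M-CSF and neither stimulus. The labels write the 72 h groups as 3 days, and they do not say whether the replicates came from separate mice or cultures, so p-values measure only the spread between these samples. A group kept in M-CSF alone for the same 72 h was not analysed here, so time in culture and stimulus cannot be told apart in comparisons of 72 h groups with control. In such bulk samples, fewer cells of a type and less RNA per cell cannot be told apart either.

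Type I interferons are secreted proteins that warn neighbouring cells of infection. Interferon beta binds a receptor made of Ifnar1 and Ifnar2, whose kinases activate Stat2 among other factors, which joins Irf9 to bind the interferon-stimulated response element (ISRE) in promoters. The genes so induced encode sensors of viral RNA and DNA, proteins that bind viral RNA, enzymes that make or consume nucleotides, and proteins that modify others or hold virus at membranes. Macrophages make interferon beta when LPS reaches Tlr4, while RANKL acts through its own receptor on osteoclast precursors, and interferon beta is known to restrain osteoclast formation.

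Promoter sequence was available in RefSeq (GRCm38.p6) for 34 of the 42 genes, with none for Mx1, Mx2, Oas2, Ifi204, Dhx58, Rtp4, Parp9 and Parp14. The ISRE core, searched as GAAANNGAAA on both strands of the 250 bases before each start, was found in 11 of the 34, or 32.4%. Over all 32851 promoters of the table it was found in 2.98%, and in 3.53% of the 8973 tested genes that have an entry. The 11 were Ifit1, Ifit3, Ifit3b, Isg15, Oas1a, Oas1g, Oas3, Rsad2, Bst2, Slfn5 and Slfn8, and in several of them matches overlapped by sharing a GAAA. A second motif, the gamma-activated site (GAS) core, was searched as TTCNNNGAA, which reads the same on both strands. It was found in 6 of the 34 (17.6%), namely Ifit2, Isg20, Oas1a, Bst2, Eif2ak2 and Samhd1, against 7.02% of all promoters. Oas1a and Bst2 held both cores. In Bst2 the GAS core overlapped an ISRE core, while in Oas1a it lay apart, 98 to 90 bases before the start. A match is a description of the letters, not a measured site. The stretches below are written 5′ to 3′ along the gene, with the ISRE core matches in capitals. Isg15, Ifit1 and Rsad2 are shown because their transcripts rose strongly with LPS at 4 h, Oas1a and Oas3 because they hold the same core and did not pass the test there, and Ifnb1 because it rose with no such core in the window.
Isg15, chr4:156200857-156200916, minus strand: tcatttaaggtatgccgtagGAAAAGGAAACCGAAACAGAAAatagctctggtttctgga
Ifit1, chr19:34640769-34640828, plus strand: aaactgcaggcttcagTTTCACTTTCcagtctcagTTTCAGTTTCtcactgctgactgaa
Rsad2, chr12:26456539-26456598, minus strand: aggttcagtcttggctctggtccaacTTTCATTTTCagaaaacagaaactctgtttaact
Oas1a, chr5:120907526-120907585, minus strand: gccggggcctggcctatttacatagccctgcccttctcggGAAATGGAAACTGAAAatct
Oas3, chr5:120777701-120777760, minus strand: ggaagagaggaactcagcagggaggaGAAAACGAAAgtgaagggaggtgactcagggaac
Ifnb1, chr4:88522795-88522914, minus strand: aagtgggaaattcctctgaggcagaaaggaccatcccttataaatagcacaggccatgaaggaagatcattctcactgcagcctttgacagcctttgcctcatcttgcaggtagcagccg
In Isg15 the 3 matches lay between 78 and 57 bases before the start, in Ifit1 the 2 lay on the opposite strand from 104 to 76 bases before it, and in Oas1a the 2 lay within the last 20 bases. Median log2 fold changes in LPS 4 h against control were 1.51 over the 11 genes with the core (range -0.07 to 3.78, 5 of 11 higher) and 0.63 over the 23 without it (range -0.04 to 3.72, 12 of 23 higher). In RANKL 72 h against control they were -1.96 and -1.37, with all 11 and 20 of 23 lower.

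Expression was deposited as FPKM (fragments per kilobase of exon, scaled to the mapped reads of the sample), a scale on which levels of different genes can be set side by side. Each sample held between 18.12 and 20.08 M fragments on listed genes, and the 39 genes other than Ifnb1 had 116 to 197305 fragments per sample (median 4364), so counting error was small for them. Intervals from fragment numbers cover counting error only. Changes were fitted on log2(FPKM + 0.1) over the 11743 genes whose mean reached 0.1 FPKM, and a gene was called higher or lower at a fold change above 1.5 or below 0.66 with a Benjamini-Hochberg adjusted p under 0.05 over all of them. Each log2 fold change is given with its standard error, and FPKM values follow the order of replicates 1, 2 and 3.

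Many of the 40 genes were higher than control in LPS 4 h, and at 72 h most stood below control under either stimulus. Of the 40, 19 were called higher and 0 lower in LPS 4 h against control (median log2 change 0.70), while over all genes tested 8.43% were higher and 39.7% lower (median -0.52). Because the typical gene moved so far down in LPS 4 h, samples were also centred on their median gene, which gave 28 higher and 0 lower (median 1.27) beside 15.9% higher and 13.0% lower over all genes. In LPS 72 h against control 26 were lower and 0 higher (median -1.01), beside 14.4% lower and 13.0% higher over all genes (median 0.08). In RANKL 72 h against control 36 were lower and 0 higher (median -1.48), beside 7.54% and 16.6% (median 0.16). In RANKL 4 h against control limma called 0 in either direction, as did voom on fragments recovered from the values (median -0.68), beside 0.111% higher and 0.00852% lower over all genes (median 0.00). Without adjustment of p, 15 of the 40 were lower there and 0 higher, beside 1.35% of all genes lower. The 4 comparisons share the same control samples.

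**Figure D1:**
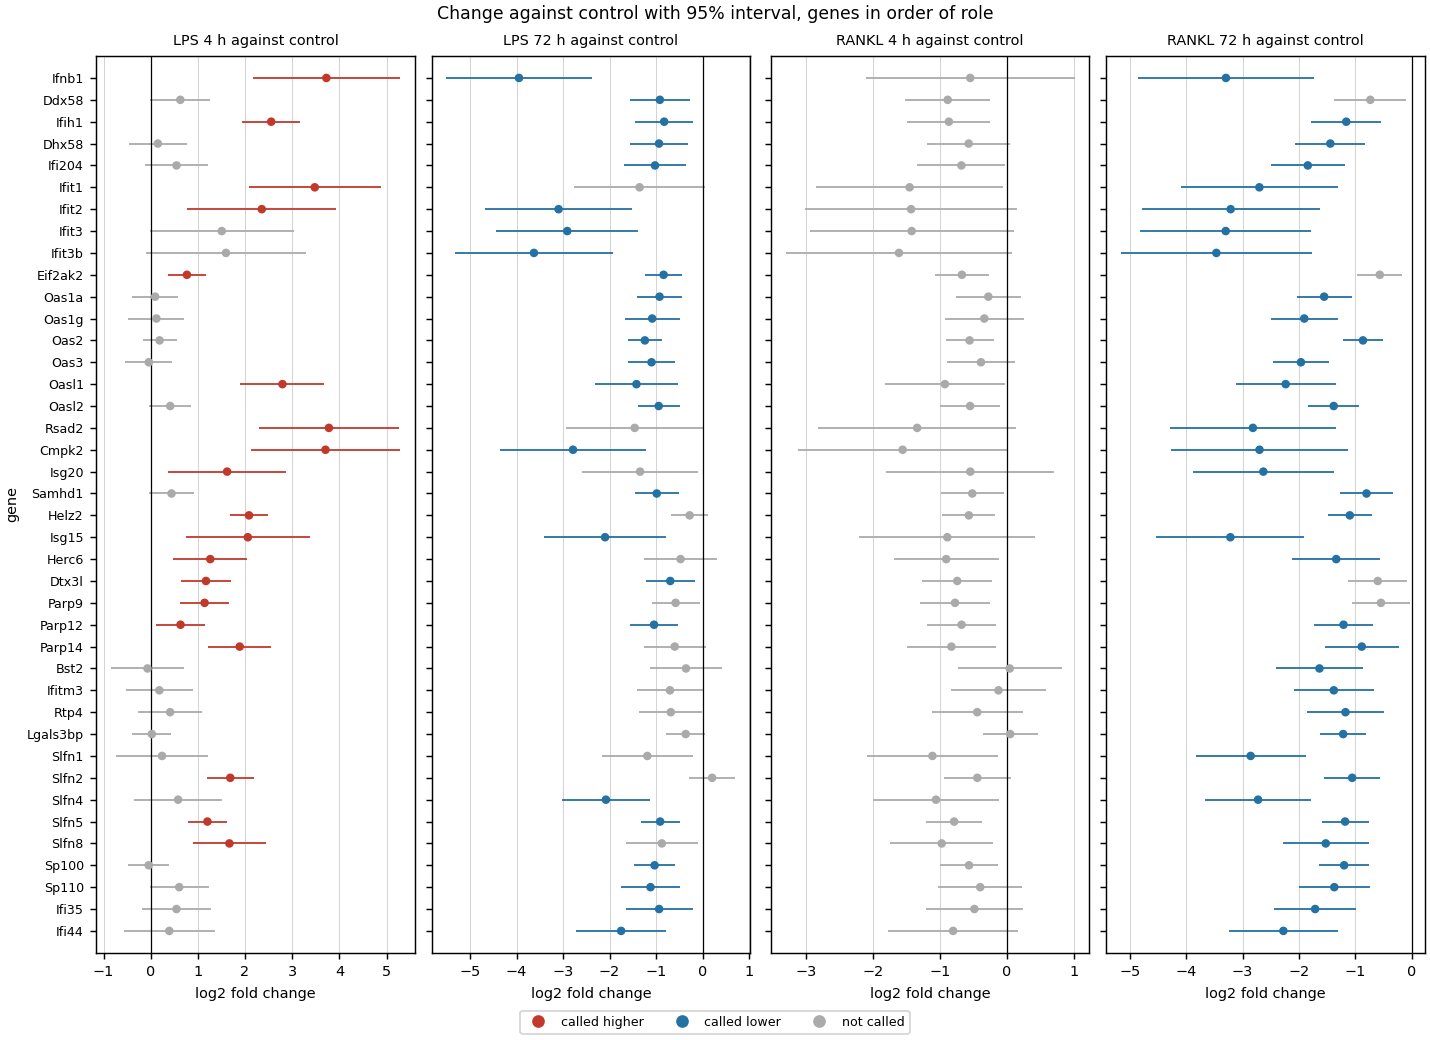
Log2 fold change of the 40 genes in each stimulus and time against control (horizontal axis, each panel on its own range), as points with 95% intervals from the fit, in order of role (vertical axis). Red points were called higher, blue points lower and grey points not called; 19 are red in LPS 4 h, 26 blue in LPS 72 h, 36 blue in RANKL 72 h and none is coloured in RANKL 4 h.

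The control samples differed among themselves in these genes more than in most. Replicate 1 was the highest control in 39 of the 40 genes and replicate 3 the lowest in 39, with both true of 38, an order found in 20.0% of all genes tested. The highest control was 1.83 times the lowest in the median gene of the 40 (range 1.15 to 7.03), beside 1.33 over all genes above 0 in each control. RANKL 4 h samples had the same order, with replicate 1 highest in 39 and replicate 3 lowest in 39 and a median ratio of 2.41. In LPS 4 h this ratio was 1.29 and in RANKL 72 h 1.40. The 40 genes together took 1.29% to 2.47% of the summed FPKM in control, 3.92% to 4.11% in LPS 4 h, 0.927% to 1.96% in RANKL 4 h, 0.883% to 1.18% in LPS 72 h and 0.576% to 0.731% in RANKL 72 h. Control levels ran from 2.14 ± 1.62 FPKM (SD, n = 3) for Ifnb1 to 1754 ± 365 for Ifitm3, and 36 of the genes had control means between 26.0 and 581.6 FPKM.

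**Figure D2:**
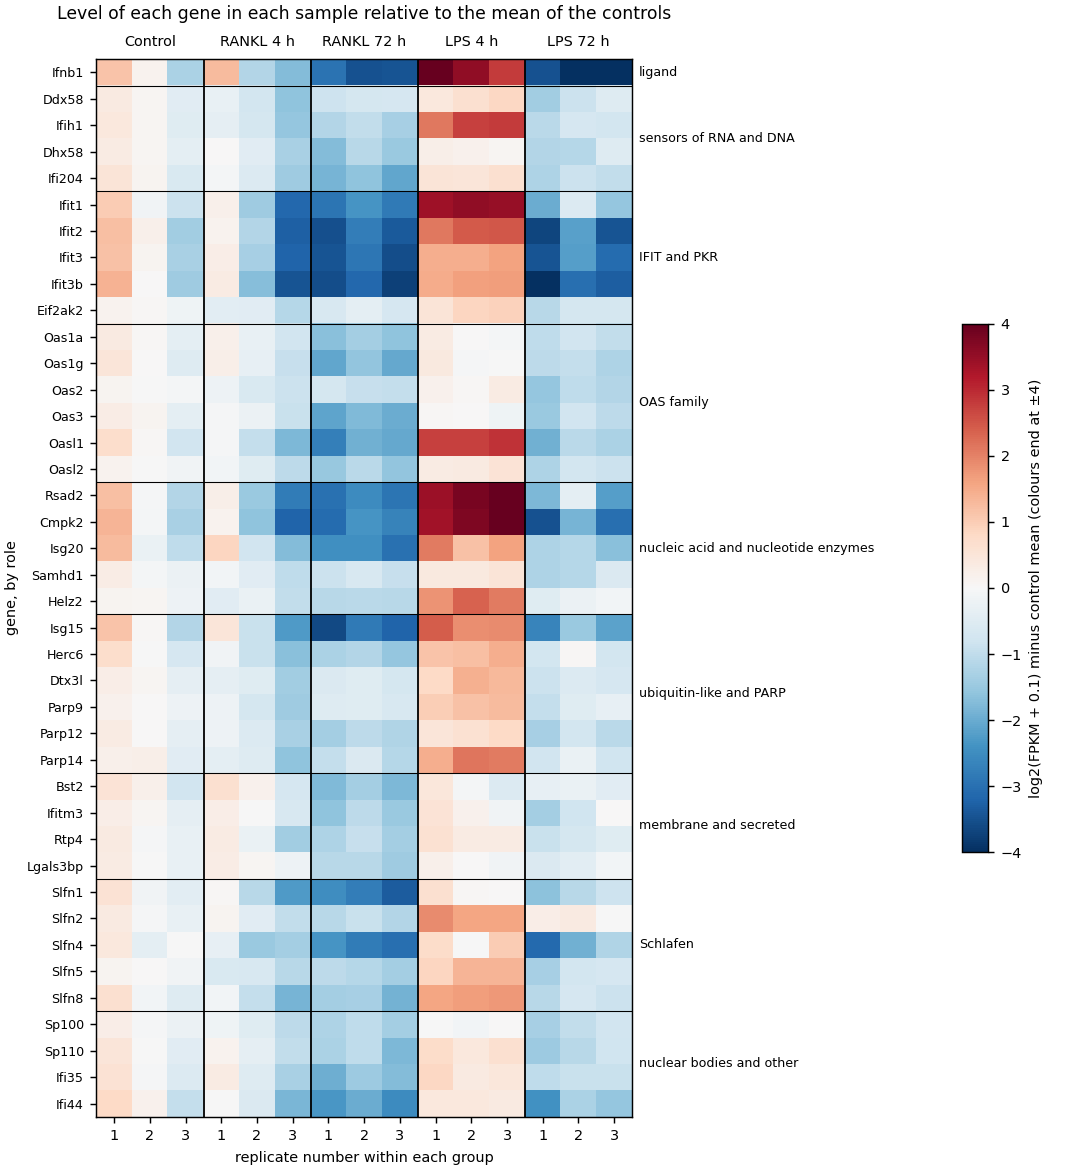
Level of each of the 40 genes (rows, by role) in each of the 15 samples (columns, replicates 1 to 3 within each group), as log2(FPKM + 0.1) minus the mean of the 3 controls. Red is above the control mean and blue below it; LPS 4 h is the reddest block, both 72 h groups are mostly blue, and within control and RANKL 4 h replicate 1 is redder than replicate 3.

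Ifnb1, the ligand, was low in control and rose in LPS 4 h. It was at 3.87, 1.89 and 0.649 FPKM in control and at 50.5, 21.2 and 12.5 in LPS 4 h, and every LPS 4 h sample lay above every control. RANKL 4 h gave 4.22, 0.695 and 0.449, which overlap the controls. The 72 h groups were near the limit of detection, with 2, 1 and 1 fragments in RANKL 72 h and 1, 0 and 0 in LPS 72 h, where a count of 0 allows up to 3. Against control, Ifnb1 rose by 3.72 ± 0.73 on the log2 scale in LPS 4 h (adjusted p = 0.00064). Summed over the 3 samples, control had 105 fragments and RANKL 72 h 4, a ratio of 25.2 (95% exact interval 9.55 to 94.2). LPS 72 h had 1, a ratio of 103 (18.2 to 4120). From LPS 4 h, with 1352 fragments, to LPS 72 h the ratio was 1320 (237 to 52300). Ifnb1 was called lower in both 72 h groups in the fit, a call that depends for RANKL 72 h on the pseudocount and was lost with a pseudocount of 1. Of the 13 interferon alpha genes listed, 10 were at 0 FPKM in all samples and the other 3 reached at most 0.257 FPKM in any sample.

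The sensors of viral nucleic acid were led in LPS 4 h by Ifih1, which encodes Mda5, a detector of long double-stranded RNA. Ifih1 was at 40.4, 31.6 and 21.4 FPKM in control and 131, 202 and 210.2 in LPS 4 h, then 14.1, 18.9 and 18.2 in LPS 72 h. With RANKL it was at 23.5, 18.4 and 10.3 at 4 h and 13.2, 15.3 and 12.0 at 72 h. The LPS 4 h samples stood apart from all others, and both 72 h groups lay wholly below control. Its log2 fold change was 2.55 ± 0.29 in LPS 4 h (adjusted p = 7.7e-06), -0.83 ± 0.29 in LPS 72 h (0.038) and -1.16 ± 0.29 in RANKL 72 h (0.0087). Ddx58, encoding Rig-I, a detector of short or uncapped RNA, was at 73.8, 60.1 and 41.9 in control, 75.9, 89.7 and 101 in LPS 4 h and 21.9, 31.2 and 39.8 in LPS 72 h. RANKL samples held 46.3, 34.3 and 18.5 at 4 h and 32.4, 35.2 and 35.5 at 72 h. Its LPS 4 h estimate of 0.63 ± 0.30 did not pass the test (0.084), although each of those samples exceeded every control, and it was lower only in LPS 72 h (-0.92 ± 0.30, 0.027) of the comparisons with control. Ifi204, a DNA-binding protein of the Ifi200 family, was at 352, 262 and 160.1 in control and 353, 343 and 379 in LPS 4 h, with 104, 135 and 124 in LPS 72 h. RANKL gave 235, 167 and 91.1 at 4 h and 67.7, 81.0 and 58.3 at 72 h. LPS 4 h overlapped control in Ifi204, while both 72 h groups lay below it, by -1.02 ± 0.31 in LPS (0.019) and -1.84 ± 0.31 in RANKL (0.0007). Dhx58, encoding Lgp2, a regulator of the other sensors, was lower at 72 h with LPS (-0.94 ± 0.29) and RANKL (-1.44 ± 0.29).

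The IFIT proteins bind viral RNA by its end and hold back its translation, and Ifit1 gave the clearest rise among them. Ifit1 was at 189.9, 85.3 and 52.1 FPKM in control and at 991, 1111 and 1063 in LPS 4 h. At 72 h it was at 23.96, 64.1 and 32.6 with LPS and at 12.3, 18.4 and 13.3 with RANKL, while RANKL 4 h held 109, 35.3 and 10.54. LPS 4 h samples were close together and above all others, RANKL 72 h lay wholly below control, and LPS 72 h and RANKL 4 h overlapped it. The change was 3.48 ± 0.65 in LPS 4 h (adjusted p = 0.00046) and -2.70 ± 0.65 in RANKL 72 h (0.0072). In LPS 72 h it was -1.36 ± 0.65, which did not pass (0.12). Ifit2 rose by 2.35 ± 0.73 in LPS 4 h (0.014) and fell by 3.10 ± 0.73 in LPS 72 h (0.0053) with a change of -3.21 ± 0.73 in RANKL 72 h (0.0053).
Ifit3 and Ifit3b, near-identical neighbours whose fragments may have been split between them, had high controls. Ifit3 was at 516, 247 and 91.7 FPKM in control, 617, 625 and 697 in LPS 4 h and 20.7, 49.4 and 26.7 in LPS 72 h. With RANKL it was at 273, 90.5 and 24.4 at 4 h and 20.7, 30.3 and 19.3 at 72 h. Ifit3b was at 159, 61.9 and 22.6 in control, 171, 187 and 192 in LPS 4 h and 2.43, 7.46 and 6.11 in LPS 72 h, with 75.8, 18.6 and 5.39 in RANKL 4 h and 5.10, 6.82 and 4.50 in RANKL 72 h. In both genes LPS 4 h exceeded each control and both 72 h groups lay below each control. The LPS 4 h estimates of 1.51 ± 0.71 and 1.59 ± 0.79 did not pass the test, but Ifit3 did with replicate number as a block (1.51, adjusted p = 0.048). At 72 h the changes were among the largest of the 40 genes, in RANKL -3.30 ± 0.71 for Ifit3 (0.0037) and -3.47 ± 0.79 for Ifit3b (0.0052), and in LPS they were -2.91 ± 0.71 (0.0062) and -3.63 ± 0.79 (0.0032). Eif2ak2, the kinase PKR that stops translation when it binds double-stranded RNA, moved less, with 36.9, 34.7 and 29.6 in control and 48.2, 61.2 and 63.5 in LPS 4 h. It was at 15.6, 20.4 and 20.6 in LPS 72 h, 25.0, 24.2 and 15.3 in RANKL 4 h and 21.5, 25.6 and 21.2 in RANKL 72 h. Each of these groups lay wholly on one side of control, and Eif2ak2 was called higher in LPS 4 h (0.77 ± 0.19, 0.0031) and lower in LPS 72 h (-0.84 ± 0.19, 0.0036). In RANKL 72 h its fall of -0.56 ± 0.19 had an adjusted p of 0.035 but did not reach the fold threshold.

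**Figure D3:**
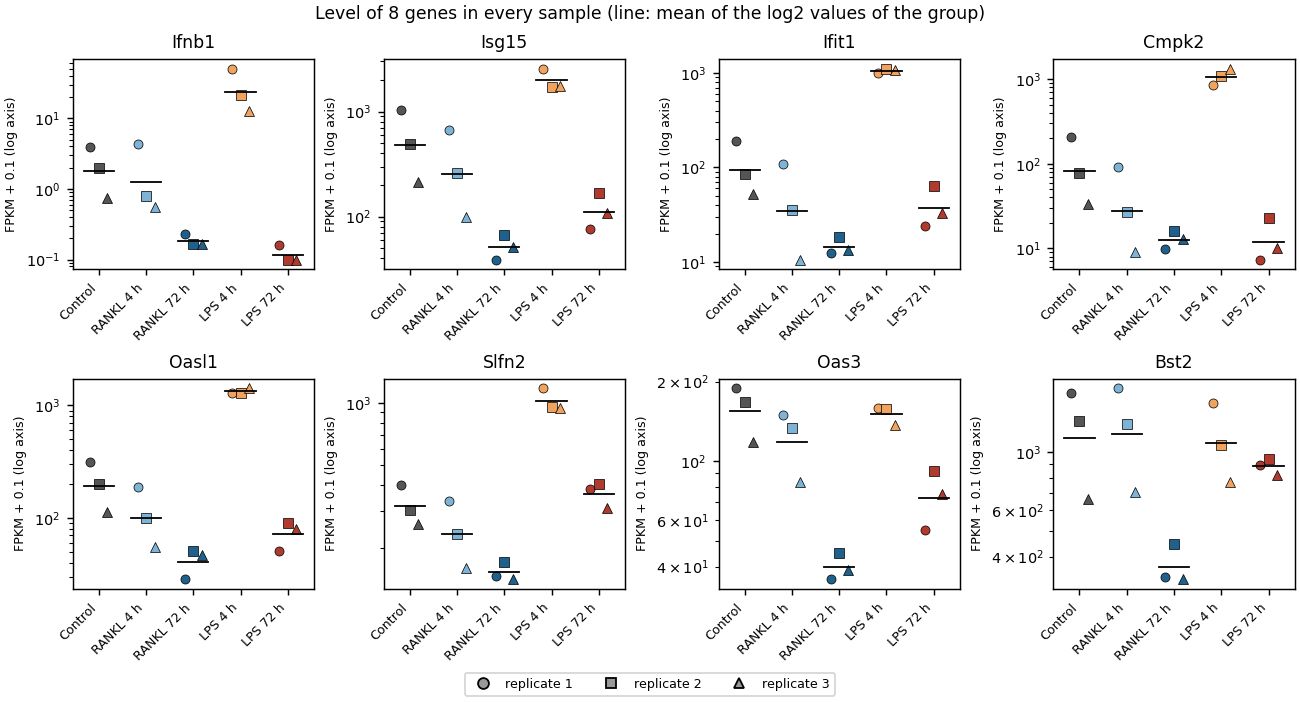
FPKM + 0.1 on log axes for 8 of the genes in every sample, with the group on the horizontal axis, symbols for replicates 1 to 3 and a line at the mean of the log2 values of each group. Ifnb1, Isg15, Ifit1, Cmpk2, Oasl1 and Slfn2 peak in LPS 4 h, Oas3 and Bst2 do not, and RANKL 72 h is the lowest group in all but Ifnb1 and Cmpk2, where LPS 72 h is lowest.

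The oligoadenylate synthetases, which make a short nucleotide signal on sensing double-stranded RNA, divided in LPS 4 h. Oasl1, a family member without that enzyme activity, was at 314, 199.8 and 113 FPKM in control and 1291, 1285 and 1423 in LPS 4 h. It was at 51.1, 89.99 and 79.7 in LPS 72 h, 187, 100.1 and 54.8 in RANKL 4 h and 28.5, 50.5 and 46.9 in RANKL 72 h. LPS 4 h stood apart above the rest and both 72 h groups below control, with changes of 2.79 ± 0.41 (adjusted p = 7.3e-05), -1.42 ± 0.41 (0.017) and -2.23 ± 0.41 (0.0015). The other 5 members were not called in LPS 4 h. Oas2 was at 48.2, 43.8 and 42.03 in control, 50.5, 45.9 and 56.6 in LPS 4 h and 15.2, 21.8 and 19.9 in LPS 72 h. In RANKL it was at 38.5, 29.2 and 24.6 at 4 h and 27.5, 23.3 and 22.9 at 72 h. Oas2 overlapped control in LPS 4 h (0.19 ± 0.17, 95% interval -0.17 to 0.55) and in no other group, and fell by 1.24 ± 0.17 in LPS 72 h (0.00011) and by 0.86 ± 0.17 in RANKL 72 h (0.002). Estimates in LPS 4 h were -0.04 for Oas3 (interval -0.54 to 0.46), 0.09 for Oas1a (-0.39 to 0.58) and 0.12 for Oas1g (-0.47 to 0.71), and Oas3 turned to 0.53 when samples were centred on their median gene. All 6 members were lower in both 72 h groups, with estimates from -0.93 to -1.42 in LPS and from -0.86 to -2.23 in RANKL. Oas1a and Oas1g are close paralogs, so the split of fragments between them is uncertain.

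Rsad2 and Cmpk2 encode viperin, which makes a chain-terminating nucleotide, and a mitochondrial nucleotide kinase, and they rose as steeply as Ifnb1. Rsad2 was at 333, 139 and 64.5 FPKM in control and 1560.3, 2012 and 2456 in LPS 4 h. It stood at 41.4, 111 and 31.0 in LPS 72 h, 170.5, 51.5 and 20.7 in RANKL 4 h and 17.9, 25.0 and 18.8 in RANKL 72 h. Cmpk2 was at 209, 78.6 and 33.8 in control and 847, 1092 and 1333 in LPS 4 h, and at 7.28, 22.5 and 10.1 in LPS 72 h. RANKL samples held 90.9, 26.6 and 8.86 of Cmpk2 at 4 h and 9.71, 16.1 and 12.7 at 72 h. For both genes LPS 4 h lay far above control and RANKL 72 h wholly below it, and RANKL 4 h overlapped control. Rsad2 rose by 3.78 ± 0.69 in LPS 4 h (adjusted p = 0.00037) and fell by 2.82 ± 0.69 in RANKL 72 h (0.0077), with -1.46 ± 0.69 in LPS 72 h, where the groups overlapped (0.11). Cmpk2 rose by 3.70 ± 0.73 in LPS 4 h (0.00068) and fell by 2.79 ± 0.73 in LPS 72 h (0.0095) and by 2.70 ± 0.73 in RANKL 72 h (0.013). Samhd1, which destroys the building blocks of DNA, was at 152, 117 and 104 in control, 161, 162 and 177 in LPS 4 h and 52.1, 55.0 and 82.2 in LPS 72 h. With RANKL it was at 113, 90.5 and 61.1 at 4 h and 68.3, 78.9 and 64.9 at 72 h. Samhd1 exceeded the controls in each LPS 4 h sample by little (0.44 ± 0.22, not called) and was below them in both 72 h groups (-0.99 ± 0.22 with LPS, 0.0034, and -0.80 ± 0.22 with RANKL, 0.014). Isg20, an RNA exonuclease, and Helz2, a helicase that coactivates nuclear receptors, rose in LPS 4 h by 1.62 ± 0.58 and 2.08 ± 0.18 and were lower in RANKL 72 h by -2.63 ± 0.58 and -1.10 ± 0.18.

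Isg15, a ubiquitin-like protein that is attached to other proteins, had the highest control level of the genes that rose. It was at 1044, 488 and 213 FPKM in control and 2565, 1728 and 1766 in LPS 4 h. In LPS 72 h it was at 76.2, 169 and 108, in RANKL 4 h at 668, 257 and 98.6 and in RANKL 72 h at 38.9, 66.6 and 51.7. LPS 4 h lay above all controls and both 72 h groups below them, with changes of 2.06 ± 0.61 (adjusted p = 0.01), -2.10 ± 0.61 (0.017) and -3.22 ± 0.61 (0.0018). Parp14, one of the enzymes that attach ADP-ribose, was at 58.2, 60.2 and 37.1 in control, 138, 221 and 216 in LPS 4 h and 29.9, 42.3 and 29.4 in LPS 72 h. It was at 38.8, 35.5 and 16.6 in RANKL 4 h and 26.4, 34.2 and 22.8 in RANKL 72 h. Parp14 rose by 1.89 ± 0.31 in LPS 4 h (0.00016), overlapped control in LPS 72 h and lay below it in RANKL 72 h (-0.88 ± 0.31, 0.043). The remaining members, Herc6, the ligase that attaches Isg15 in mice, Dtx3l, a ubiquitin ligase, its partner Parp9 and Parp12, all rose in LPS 4 h, by 0.63 to 1.26. Of these 6 genes, 3 were lower in LPS 72 h (Isg15, Parp12 and Dtx3l) and 4 in RANKL 72 h (Isg15, Parp12, Parp14 and Herc6).

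The membrane and secreted proteins include the 3 most abundant of the 40 genes in control, and none was called in LPS 4 h. Bst2, or tetherin, which ties budding virus to the cell surface, was at 1676, 1312 and 665 FPKM in control and 1543, 1066 and 772 in LPS 4 h. It was at 895, 942 and 821 in LPS 72 h, 1752, 1284 and 708 in RANKL 4 h and 333, 446 and 328 in RANKL 72 h. RANKL 72 h was the only group that did not overlap the controls, at -1.64 ± 0.36 (adjusted p = 0.0044). Ifitm3, which blocks virus entry from endosomes, was at 2076, 1829 and 1358 in control, 2498, 1932 and 1563 in LPS 4 h and 678, 997 and 1759.9 in LPS 72 h. It was at 2084, 1722 and 1102 in RANKL 4 h and 569.5, 835 and 614 in RANKL 72 h. LPS 72 h replicate 3 stood apart from the other 2 of its group and within the controls, and RANKL 72 h alone was called (-1.38 ± 0.33, 0.0071). Lgals3bp, a secreted glycoprotein that binds galectins, was at 1068, 840.1 and 690.2 in control and 984, 860.1 and 769.5 in LPS 4 h. It was at 572, 642 and 788 in LPS 72 h, 1042, 890.4 and 737 in RANKL 4 h and 397, 394 and 317 in RANKL 72 h. Lgals3bp likewise overlapped control in each group but RANKL 72 h (-1.21 ± 0.19, 0.0005). Intervals of the LPS 4 h change were -0.84 to 0.71 for Bst2, -0.53 to 0.89 for Ifitm3 and -0.39 to 0.44 for Lgals3bp, and centring on the median gene turned the Bst2 estimate from -0.07 to 0.50. Rtp4, a chaperone of membrane receptors, was lower in RANKL 72 h (-1.17 ± 0.32, 0.013).

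The Schlafen genes, a family of growth and translation regulators clustered in the genome, were all lower in RANKL 72 h, while 3 of the 5 rose in LPS 4 h and 2 were lower in LPS 72 h. Slfn4 was at 323, 182 and 236 FPKM in control, 398, 238 and 491 in LPS 4 h and 27.5, 63.0 and 105 in LPS 72 h. With RANKL it was at 191, 86.0 and 92.7 at 4 h and 46.3, 34.6 and 29.7 at 72 h. It overlapped control in both 4 h groups and lay below it at 72 h, by -2.08 ± 0.44 in LPS (adjusted p = 0.0025) and -2.73 ± 0.44 in RANKL (0.00055). Slfn1 was at 242, 147 and 121 in control, 253, 169 and 165 in LPS 4 h and 51.9, 76.1 and 91.4 in LPS 72 h. It was at 167, 75.2 and 33.5 in RANKL 4 h and 29.1, 23.6 and 16.2 in RANKL 72 h. Both 72 h groups of Slfn1 lay below control, and the fall was called in RANKL (-2.86 ± 0.46, 0.00052) but not in LPS (-1.19 ± 0.46, 0.056). Slfn2, needed for T cell quiescence, rose in LPS 4 h by 1.69 ± 0.23 (4.2e-05), stood near control in LPS 72 h (0.20 ± 0.23, interval -0.30 to 0.70) and fell in RANKL 72 h by 1.05 ± 0.23 (0.0044). Slfn5 and Slfn8 rose in LPS 4 h by 1.20 ± 0.19 and 1.67 ± 0.36 and were lower in RANKL 72 h by -1.18 ± 0.19 and -1.52 ± 0.36, and Slfn5 was also lower in LPS 72 h (-0.91 ± 0.19, 0.0027).

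The last group holds proteins of nuclear bodies and genes of less settled function, and none of its 4 members was called in LPS 4 h. Sp100, a nuclear body protein that restrains DNA viruses, was at 88.0, 71.7 and 62.7 FPKM in control, 71.9, 68.4 and 73.6 in LPS 4 h and 29.1, 36.9 and 42.8 in LPS 72 h. It was at 65.2, 52.5 and 35.4 in RANKL 4 h and 31.4, 36.6 and 28.4 in RANKL 72 h. The LPS 4 h samples lay inside the control range (-0.04, interval -0.48 to 0.40, or 0.52 when centred on the median gene), and both 72 h groups lay below it (-1.03 ± 0.20, adjusted p = 0.0016, and -1.20 ± 0.20, 0.00082). Sp110, its relative, Ifi35 and Ifi44 were lower in both 72 h groups too, by -0.94 to -1.75 in LPS and by -1.37 to -2.28 in RANKL.

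Some of these calls rested on 1 library. In LPS 4 h, Ifit2, Isg15, Isg20 and Parp12 were not called without control replicate 3, where 15 genes were called in all, against 25 without control replicate 1. In LPS 72 h, Isg15 and Oasl1 were not called without control replicate 1 or without LPS 72 h replicate 1. Ifih1, Ddx58, Dhx58 and Dtx3l were lost without replicate 1 or 2 of either group, Ifi204 without either of these controls or LPS 72 h replicate 1, and Ifi35 in most such fits. LPS 72 h had 18 calls without control replicate 1. In RANKL 72 h, Cmpk2, Herc6, Rtp4, Samhd1 and Parp14 were not called without control replicate 1, where 31 were called, and Parp14 was lost without several other libraries too. No called gene changed direction in any of these fits.

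RANKL 4 h samples held less of most of the genes when each was set against the control with the same number. Replicate numbers come from the labels, and same-numbered control and RANKL 4 h samples deviated together over all genes (correlation of deviations 0.71 to 0.84). In 36 of the 40 genes RANKL 4 h was below its same-numbered control in all 3 pairs, a pattern of 22.3% of all genes tested. The exceptions were Bst2, Ifitm3, Lgals3bp and Ifnb1. Median log2 ratios of the 40 genes were -0.55, -0.62 and -0.94 for numbers 1, 2 and 3, with medians of 0.03, 0.00 and -0.03 over all genes. A fit of only these 2 groups, blocked on replicate number, gave 21 of the 40 as lower and 0 higher, beside 1.44% of all genes lower. That fit was chosen after seeing the data, whereas the fit of all 5 groups, with or without the block, called 0. In the paired fit Ifit3b fell by 1.61 ± 0.17 (adjusted p = 0.0085), Cmpk2 by 1.56 ± 0.13 (0.0068), Ifit1 by 1.46 ± 0.26 (0.033) and Rsad2 by 1.34 ± 0.12 (0.0068). Sensors fell less, Ddx58 by 0.89 ± 0.10 (0.0093) and Ifih1 by 0.87 ± 0.08 (0.0068), and of the OAS family only Oasl1 was called (-0.93 ± 0.07, 0.0067). In the fit of all 5 groups without the block, the same differences had standard errors of 0.65 for Ifit1, 0.69 for Rsad2, 0.73 for Cmpk2 and 0.30 for Ddx58, and none passed. That fit differs in both the groups and the block, and the fit of only these 2 groups without the block called 0 as well.

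**Figure D4:**
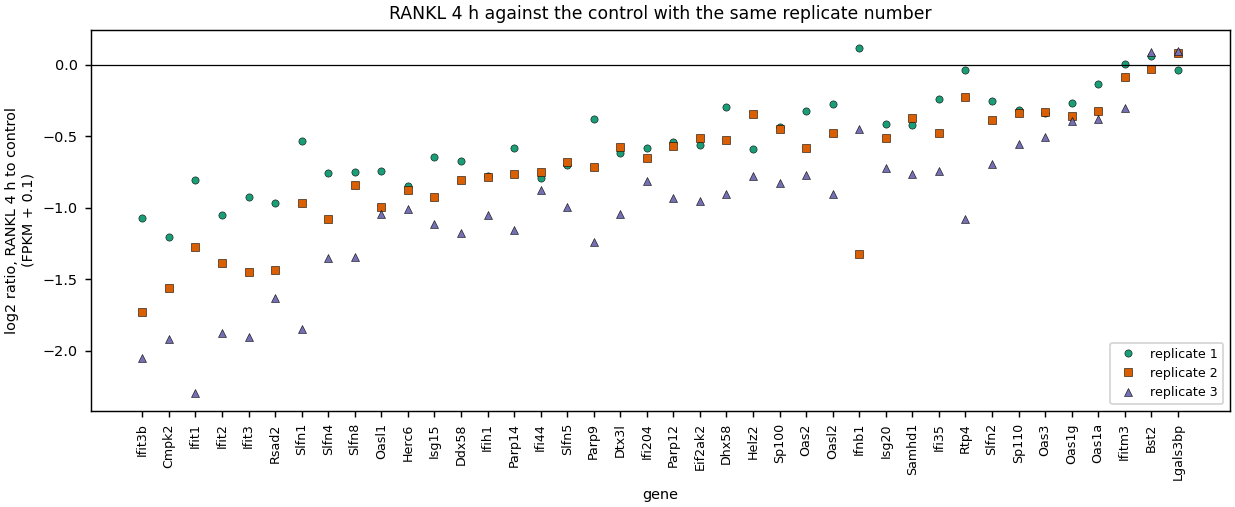
Log2 ratio of FPKM + 0.1 in each RANKL 4 h sample to the control with the same replicate number (vertical axis) for the 40 genes (horizontal axis, in order of their mean), with 1 symbol per replicate number. In 36 genes all 3 points lie below 0, and Ifit3b, Cmpk2, Ifit1, Ifit2 and Ifit3 lie lowest.

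RANKL and LPS were next compared directly at the same time, which tests the difference of their responses. At 4 h RANKL was below LPS in 33 of the 40 genes and above it in 0 (median -1.58), beside 8.98% of all genes lower and 41.0% higher (median 0.53). Cmpk2 (-5.26 ± 0.73, adjusted p = 4e-05), Rsad2 (-5.12 ± 0.69, 3e-05), Ifit1 (-4.93 ± 0.65, 2.6e-05) and Ifnb1 (-4.27 ± 0.73, 0.00021) differed most. The 7 not called were Oas1a, Oas1g, Oas3, Bst2, Ifitm3, Lgals3bp and Sp100, each also uncalled in LPS 4 h against control. At 72 h RANKL was below LPS in 9 and above it in 0 (median -0.51), beside 12.8% lower and 23.3% higher over all genes (median 0.11). These 9 were Slfn1 (-1.67 ± 0.46, 0.0087), Bst2 (-1.28 ± 0.36, 0.011), Slfn2 (-1.26 ± 0.23, 0.00065), Oas3 (-0.86 ± 0.23, 0.0082), Lgals3bp (-0.85 ± 0.19, 0.0027), Helz2 (-0.82 ± 0.18, 0.0027), Oas1g, Ifi204 and Oas1a. In all 9 the 3 RANKL 72 h samples lay below the 3 LPS 72 h samples. The same held for genes that were not called, such as Ifit1, Rsad2 and Isg15. Of the 9, Slfn1, Bst2, Slfn2, Oas3, Lgals3bp and Helz2 kept their call without any single library. Oas1a, Oas1g and Ifi204 lost it without RANKL 72 h replicate 1 or 3 among others. Fitted with only the 2 groups, 16 of the 40 were lower and 1321 of all 11743 genes. Ifit1 (-1.34 ± 0.65, 0.11) and Rsad2 (-1.35 ± 0.69, 0.12) had larger estimates than most of the 9 but wider errors.

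**Figure D5:**
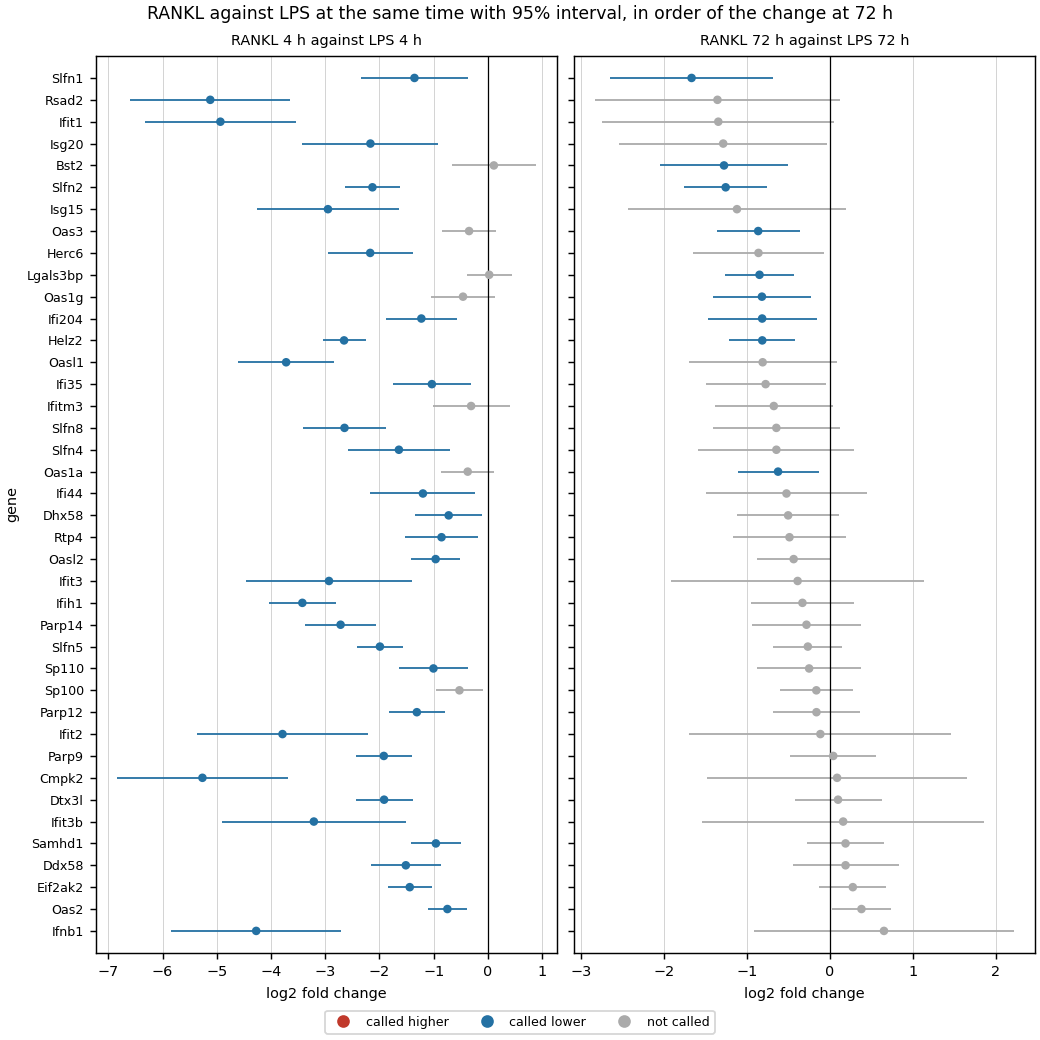
Log2 fold change of RANKL against LPS at 4 h and at 72 h (horizontal axes) for the 40 genes (vertical axis, in order of the 72 h estimate), as points with 95% intervals and colours as for the comparisons with control. At 4 h 33 genes are blue and Bst2 and Lgals3bp lie near 0, while at 72 h 9 are blue and the other 31 grey.

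Between 4 h and 72 h of LPS, 38 of the 40 genes fell and 0 rose (median -1.73), beside 13.9% lower and 44.2% higher over all genes (median 0.52). The largest falls after that of Ifnb1 were in Cmpk2 (-6.49 ± 0.73, adjusted p = 4.5e-06), Ifit2 (-5.45 ± 0.73, 2.2e-05), Rsad2 (-5.24 ± 0.69, 1.7e-05) and Ifit3b (-5.22 ± 0.79, 5.8e-05), and the 2 not called were Bst2 and Lgals3bp. Genes called above control in LPS 4 h and below it in LPS 72 h were Ifit2, Isg15, Oasl1, Ifih1, Cmpk2, Parp12, Eif2ak2, Slfn5, Dtx3l and Ifnb1. Those called above control in LPS 4 h and below it in RANKL 72 h were all of these but Eif2ak2 and Dtx3l, together with Ifit1, Isg20, Rsad2, Parp14, Slfn2, Slfn8, Herc6 and Helz2. As the comparisons share the control samples, the names are a description. The share of all genes with the same pairs of calls was not counted.
Between 4 h and 72 h of RANKL, 19 genes fell and 0 rose (median -1.15), beside 6.83% lower and 16.4% higher over all genes (median 0.15). Ifnb1 and Isg15 (-2.33 ± 0.61, adjusted p = 0.012) fell most, followed by Isg20 (-2.08 ± 0.58, 0.017). This count moved with single libraries, to 6 without RANKL 4 h replicate 1, to 30 without RANKL 4 h replicate 3 and to 12 without RANKL 72 h replicate 3, and Isg15, Isg20 and Ifnb1 were among those lost without the first.

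Other genes of the pathway were taken from lists drawn up by function. Their counts stand beside the shares of all genes given above, 8.43% higher and 39.7% lower in LPS 4 h, 13.0% and 14.4% in LPS 72 h and 16.6% and 7.54% in RANKL 72 h. Of 57 further interferon-stimulated genes, 56 were tested. In LPS 4 h against control 27 were higher (median 0.75), in LPS 72 h 0 and 21 (median -0.72), in RANKL 72 h 0 and 32 (median -1.17) and in RANKL 4 h 0 and 1 (median -0.58). Cxcl10, a chemokine, had a mean of 49.9 ± 55.6 FPKM (SD) in control and 4890 ± 334 in LPS 4 h (log2 fold change 7.25). Cd69, an early activation marker, rose by 5.57. Trim25, a ligase that acts on Rig-I, was the 1 lower in RANKL 4 h (-0.68), a call lost without any of the control or RANKL 4 h libraries. Among 14 genes of the receptors and their signal, 3 were higher and 2 lower in LPS 4 h, 1 and 1 in LPS 72 h, 2 and 2 in RANKL 72 h and 0 in RANKL 4 h. The 3 were the inhibitors Socs1 (4.30) and Socs3 (7.09) and the kinase Jak2 (2.77), while Stat2 and Irf9, which act together at the ISRE, were not called there. In RANKL 72 h Stat2 (-1.54) and Socs1 (-2.30) were lower and the receptor chains Ifnar1 (0.66) and Ifngr1 (0.88) higher, with Socs1 (-1.71) and Ifnar1 (0.57) not called without control replicate 1. Of 19 genes that lead to Ifnb1, 6 were higher and 6 lower in LPS 4 h, 4 and 4 in LPS 72 h, 2 and 8 in RANKL 72 h and 0 in RANKL 4 h. Irf7, the factor that amplifies interferon production, stood at 1022 FPKM on average in control, 946 in RANKL 4 h and 206 in RANKL 72 h (-2.25). It was 1066 in LPS 4 h and 700.5 in LPS 72 h, neither called. Ifng, the gene of interferon gamma, was the only tested ligand besides Ifnb1. It rose from a mean of 0.0918 ± 0.0581 (SD) in control to 2.96 ± 2.33 FPKM in LPS 4 h (3.79). Its control level was near the limit of detection, with 7 fragments summed over the controls and 224 over LPS 4 h.

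Markers of several cell types also differed between the groups, some falling and some rising where these genes fell, and their part in the results was not tested. All 8 macrophage markers were present in each group. Their summed levels were 7360 to 9075 FPKM in control, 6046 to 7444 in LPS 4 h, 10880 to 16230 in RANKL 72 h and 6086 to 17490 in LPS 72 h. Most of the 8 were not called, with 1 higher and 1 lower (Fcgr1) in RANKL 72 h. In LPS 72 h 2 were higher, Cd14 among them, and 0 lower. The RANKL 72 h samples held 1721 to 5474 FPKM of 10 osteoclast markers against 154.8 to 279.6 in control, where Calcr was at 0, and 9 of the 10 were higher. The 7 markers of plasmacytoid dendritic cells, strong makers of interferon, summed to 21.4, 20.2 and 11.1 FPKM in control replicates 1, 2 and 3. In RANKL 4 h they summed to 21.7, 20.7 and 9.19, so replicate 3 was lowest in them too. Replicate 3 was likewise lowest in both groups for the macrophage, conventional dendritic cell, B cell, T and NK cell and stromal lists. LPS 4 h held 21.3, 19.1 and 10.1 of the plasmacytoid markers, RANKL 72 h 6.17 to 9.63 and LPS 72 h 4.40 to 5.93. Of these 7, 5 were lower in each 72 h group, while 1 was higher in RANKL 72 h (log2 fold change 0.73) and 0 in LPS 72 h. The defining Siglech had a mean of 2.82 FPKM in control, 0.294 in RANKL 72 h and 0 in LPS 72 h, where Klk1 was at 0 as well. Summed markers of neutrophils and their precursors, 10 genes, ran from 7913 to 24350 in control, 1852 to 7461 in RANKL 72 h and 151.6 to 1816 in LPS 72 h, with all 10 lower in LPS 72 h and 5 in RANKL 72 h. Control replicate 2, not 3, was lowest in that list. The 10 stromal markers summed to 309, 180.6 and 140.1 in control replicates 1, 2 and 3 and to 389.1 to 1823 in RANKL 72 h, where 6 were higher. Markers of other cell types moved too. Mast cell and basophil markers summed to 23.3 to 66.0 FPKM in control, 0.473 to 3.62 in RANKL 72 h (5 of 5 lower) and 0.576 to 6.15 in LPS 72 h (4 of 5 lower, Fcer1a at 0). B cell markers summed to 16.6 to 21.3 in control, 5.31 to 8.41 in RANKL 72 h (4 of 6 lower) and 0.994 to 2.68 in LPS 72 h (5 of 6 lower). Of 3 erythroid markers tested, 3 were lower in RANKL 72 h and 2 in LPS 72 h. T and NK cell markers had 1 of 6 lower in RANKL 72 h and 0 in LPS 72 h, and conventional dendritic cell markers 0 and 1 of 3. Within LPS 72 h, replicate 3 stood apart in several lists. Replicates 1, 2 and 3 held 6086, 7876 and 17490 FPKM of macrophage markers and 186.4, 151.6 and 1816 of neutrophil markers. Mast cell markers summed to 0.576, 0.893 and 6.15 there, B cell markers to 1.07, 0.994 and 2.68 and stromal markers to 85.25, 80.03 and 459.2. Replicate 3 was not highest in the osteoclast, conventional dendritic cell and erythroid lists.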

How the data were processed

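The 15 mouse BMDM libraries were grouped and numbered as their labels give them. The authors deposited 1 FPKM value per gene and sample. Their methods name StringTie and Ballgown, and the submitters' processing notes name StringTie with GRCm38.p4 and mm10. The aligner is not given in the sources used here. The table was used to its last complete gene, Tti2, and the incomplete entry after it was left out. FPKM already corrects for exon length and library size, so no count model was the main test. The values were whole multiples of 1 fragment for 14484 of 14485 genes above 0 in at least 3 samples (100% of values within 0.01), so limma voom on the recovered fragments served as an alternative. It called 13 genes higher and 1 lower in RANKL 4 h against control and 2046 and 838 in RANKL 72 h. Libraries were not duplicates, since the median squared difference between replicates (chi-square per gene) was 6.96 to 48.1 times that expected from sampling.

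Log2(FPKM + 0.1) was fitted in 1 model of the 5 groups, from which 8 contrasts were taken (lmFit and trended eBayes of limma 3.58.1 under R 4.3.3). Called genes had a fold change above 1.5 or below 0.66 and a Benjamini-Hochberg adjusted p under 0.05. The steps were tested on simulated data. Members and lists were chosen with earlier results of these data known. Values in every sample are given for Ifnb1, for the best known member of each role group and for the 2 largest rises and falls among called genes in each contrast. Pathway and marker lists are described by counts and medians without a test of the list, and results on some of their genes are not reported here. Same-numbered samples deviated together, with every correlation over 0.1, in control with RANKL 4 h, LPS 4 h and RANKL 72 h, in RANKL 4 h with LPS 4 h and in RANKL 72 h with RANKL 4 h. In the comparisons with RANKL 72 h some unlike-numbered samples deviated together as much. Its replicate 3 correlated 0.265 with control replicate 2 and 0.184 with control replicate 3. Its replicate 2 correlated 0.169 with RANKL 4 h replicate 1 and 0.162 with RANKL 4 h replicate 2. The labels do not say what a number shares. Exact binomial intervals at 95% were used for Ifnb1 fragments. Scripts ran in Python 3.11.15 with pandas 2.3.3 and scipy 1.17.1.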

Additional observations from a re-analysis of the deposited data

Results flagged for a closer look

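The response to LPS ran in opposite directions at 4 h and 72 h in 10 genes, called above control at 4 h and below the same controls at 72 h. That choice fixes the sign of LPS 72 h against LPS 4 h, which is given as a description and was on the log2 scale -7.67 for Ifnb1 and -6.49 for Cmpk2. It was -5.45 for Ifit2, -4.22 for Oasl1, -4.16 for Isg15 and -3.38 for Ifih1. Smaller differences were found for Slfn5 (-2.12), Dtx3l (-1.87), Parp12 (-1.68) and Eif2ak2 (-1.61). The value for Ifnb1 depends on the pseudocount, since LPS 72 h held 1 fragment of it in all. Over all genes tested, 8.43% were higher in LPS 4 h and 14.4% lower in LPS 72 h against control. The share of all genes with both calls was not counted, so the 10 have no background to be set against.

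The responses to RANKL and to LPS at 72 h differed in 9 genes, each lower with RANKL. The log2 differences were -1.67 for Slfn1, -1.28 for Bst2, -1.26 for Slfn2, -0.86 for Oas3 and -0.85 for Lgals3bp. They were -0.82 for Helz2, -0.82 for Oas1g, -0.82 for Ifi204 and -0.62 for Oas1a. Groups of 3 samples are too small for the test of single outlying samples, so none was made.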

How the results depend on the processing

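In 253 single-gene results, recomputed under 27 alternatives, 6534 of 6830 values kept direction and call, 203 lost the call, 75 gained it and 18 changed sign, all 18 for uncalled genes in LPS 4 h against control. Centring samples on their median gene gave 0.53 for Oas3, 0.50 for Bst2 and 0.52 for Sp100, and moved the median of the 40 genes to 1.27 in LPS 4 h against control and to -2.37 in LPS 72 h against LPS 4 h. Of the 40, 39 were then lower in RANKL 72 h against control, 37 in RANKL 4 h against LPS 4 h and 39 in LPS 72 h against LPS 4 h. Leaving out 1 library gave ranges of -0.24 to 0.10 for Oas3, -0.45 to 0.21 for Bst2, -0.16 to 0.09 for Sp100, -0.10 to 0.27 for Oas1a, -0.14 to 0.37 for Oas1g, -0.13 to 0.19 for Lgals3bp and -0.21 to 0.37 for Irf7. Over all genes, centring turned the counts of higher and lower genes to 1167 and 1428 in RANKL 72 h against control (1951 and 886 before), 1580 and 1905 in RANKL 4 h against LPS 4 h (4818 and 1054), 2209 and 3224 in LPS 72 h against LPS 4 h (5186 and 1631) and 1141 and 1351 in RANKL 72 h against RANKL 4 h (1930 and 802). In RANKL 4 h against control, 13 of all genes were higher and 1 lower, against 142 and 159 without adjustment of p and 137 and 169 in the 2-group fit with a replicate block. Of the 40, 15 genes were lower without adjustment of p and 21 in that blocked fit. For RANKL 72 h against LPS 72 h, fits of only the 2 groups called 16 lower without and 16 with the block. For RANKL 72 h against RANKL 4 h, leaving out 1 library gave 6 to 30 lower genes. With a replicate block in the fit of all groups, the calls of named results that changed were those of Ifit3 in LPS 4 h and of Isg20 and Slfn1 in LPS 72 h, all 3 gained. Same-numbered samples did not deviate together in control with LPS 72 h (correlations -0.03 to 0.18), RANKL 72 h with LPS 72 h (-0.23 to -0.02) or LPS 72 h with LPS 4 h (-0.15 to 0.07), so numbers pair nothing there. The call of Ifnb1 in RANKL 72 h against control and against RANKL 4 h was lost with a pseudocount of 1 and with voom. With 3 samples a group, an exact permutation test of 1 gene cannot go below p = 0.10, and for Ifnb1 at 72 h depth limits any fold.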

Other observations

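Among the 56 further interferon-stimulated genes tested, RANKL 72 h was above LPS 72 h in 5 and below it in 14. Over all genes tested, 23.3% were higher and 12.8% lower in this comparison. Each of the 9 called genes of the 40 was lower. The 5 further genes above LPS 72 h were Slfn9 (log2 difference 2.29), Mndal (1.13), Ifi27l2a (1.11), Ifi203 (1.08) and Mov10 (0.89). Slfn9 belongs to the family of Slfn1 and Slfn2. Irf7 was lower in RANKL 72 h than in LPS 72 h by -1.78 on the same scale, and Socs1 by -2.56, while Ifngr1 was higher by 1.24. Of the genes that lead to Ifnb1, those higher in LPS 4 h than in control were Cd14 (4.23), Irf1 (3.00), Ikbke (1.69), Tlr3 (1.17), Mb21d1 (0.91) and Tbk1 (0.59), the last of which lay at the fold threshold and was lost without control replicate 1 or LPS 4 h replicate 2 or 3. Those lower in LPS 4 h than in control were Mavs (-1.90), Tlr4 (-1.18), Irf3 (-0.86), Tmem173 (-0.79), Tlr9 (-0.78) and Ticam1 (-0.66), which stand beside a median of -0.52 over all genes. With samples centred on their median gene, Irf3 (-0.29), Tmem173 (-0.22), Tlr9 (-0.21) and Ticam1 (-0.09) were not called, and Mavs and Tlr4 were. Without LPS 72 h replicate 1, Ifi27l2a (0.79), Ifi203 (0.88) and Mov10 (0.63) were not called.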
